A study of Mus musculus with 60 samples.

Results

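Whole blood of 6 mice that received vehicle and then total-body irradiation (TBI) was compared directly with whole blood of 6 unirradiated mice that received BIO 300 at 200 mg/kg. Each mouse gave 1 RNA sequencing library, and these 12 libraries are all those of their groups among the 60 of the series, chosen by group label alone. The irradiated mice were animals 49 to 54 and the BIO 300 mice animals 43 to 48, all male CD2F1 mice 5 to 6 weeks old at purchase. BIO 300 holds synthetic genistein in an amorphous dispersed form, and its vehicle was water with methylcellulose and polyvinylpyrrolidone. Both groups were dosed by gavage in 12 doses over 6 days, with 200 mg/kg of genistein per dose in the BIO 300 group. The irradiated group then received 9.2 Gy of cobalt-60 gamma radiation at 0.6 Gy/min, 24 h after the last dose. Blood was taken on Day 1 from all 12 mice, which was 48 h from their final dose and, in the irradiated group, 24 h from TBI. A further 6 unirradiated mice given vehicle and bled on Day 1 (animals 25 to 30) are shown only to place each group. Irradiated and unirradiated mice belonged to separate parts of the study, so study part and irradiation cannot be told apart here, and dosing with BIO 300 and absence of irradiation differ together between the groups.

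Ionizing radiation breaks DNA and stabilizes the transcription factor p53, which induces genes that halt the cell cycle and trigger apoptosis. Circulating lymphocytes are among the most radiosensitive cells of the body, whereas neutrophils are released from marrow stores under stress. Genistein is a soy isoflavone that binds oestrogen receptors, preferentially the beta form, and inhibits tyrosine kinases. Whole blood RNA comes from leukocytes, platelets and reticulocytes, the young red cells that still carry the transcripts of haemoglobin and heme synthesis. In such bulk samples, fewer cells of a type and less RNA per cell cannot be told apart. The comparison asks what distinguishes the blood of irradiated mice from that of drug-treated mice.

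The libraries held 21760205 to 28091646 assigned reads after TBI and 18332440 to 38337851 after BIO 300. Gene levels are given in CPM, counts scaled to a common library size by the trimmed mean of M-values (TMM) over the 18 mice. Fold changes are log2 values of irradiated minus BIO 300 mice from edgeR's quasi-likelihood test on the 12 mice, with a standard error (SE) and a Benjamini-Hochberg adjusted p. Genes with an adjusted p under 0.05 whose log2 fold change exceeded 1 in size are called differentially expressed genes (DEGs). The scaling matters. The median log2 fold change of all 23368 genes tested was 0.56 with TMM and 1.49 when libraries were scaled by total counts, a shift of 0.89. In each mouse, the 20 genes with the most counts took 24.8 to 38.1% of reads after TBI and 44.0 to 54.6% after BIO 300. At least 1 read fell on 21137 to 25969 genes after TBI, 17162 to 19361 after BIO 300 and 24167 to 25243 in vehicle mice. The predicted gene Gm26917 took 0.445 to 9.29% of reads after TBI, 0.056 to 1.47% after BIO 300 and 5.32 to 8.77% in vehicle mice. The part of these differences between libraries in the calls below was not tested. Irradiated mice 49 and 51 and BIO 300 mouse 43 stood apart, since all 16 genes of a hepatocyte list exceeded 10 CPM in each. Albumin (Alb), the main plasma protein made by the liver and looked at after its values were seen, was at 3588, 15820 and 404.6 CPM in these libraries. In the other 9 mice of both groups it lay between 0 and 29.3 CPM. Vehicle mouse 29 also had all 16 genes above 10 CPM (Alb 743 CPM). The fits against vehicle mice were not repeated without any of these libraries.

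Irradiated mice differed from BIO 300 mice in 5662 genes (24.2% of those tested), of which 4589 (19.6%) were higher and 1073 (4.59%) lower in irradiated mice. Counts of list members below are to be read beside these shares. The shares depend on abundance. Of 6493 genes whose average level reached 10 CPM in either group, 1154 were higher and 660 lower. Lower calls thus weighed more among these genes than among all genes tested. The shares quoted below are those of all genes, and lists were not set against genes of matched level. Genes of p53, of mature neutrophils and of innate immune receptors were higher after TBI. Genes of B cells, MHC class II, maturing red cells and ribosomes were lower. Most T cell genes and all platelet genes did not pass the test with TMM. With total counts, 11392 genes were higher and 232 lower, so the balance of directions depended on the scaling. Without mice 43, 49 and 51, 3755 were higher and 1852 lower. The median of all genes was -0.03 in that fit, against 0.56 with these mice, and list medians without them are to be read beside it. On the scale of the 12 mice, in 2885 genes (12.3%) every irradiated mouse lay above every BIO 300 mouse, and in 717 (3.07%) every irradiated mouse lay below. Protein-coding genes were called higher in 16.6% and lower in 5.21% of cases, whereas 40.3% of unvalidated transcripts to be experimentally tested (TEC) and 45.6% of sense-intronic transcripts were higher. The strand setting of the counting is not given in the sources used here, so reads on antisense and sense-intronic transcripts cannot be separated from those of the overlapping genes.

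**Figure D1:**
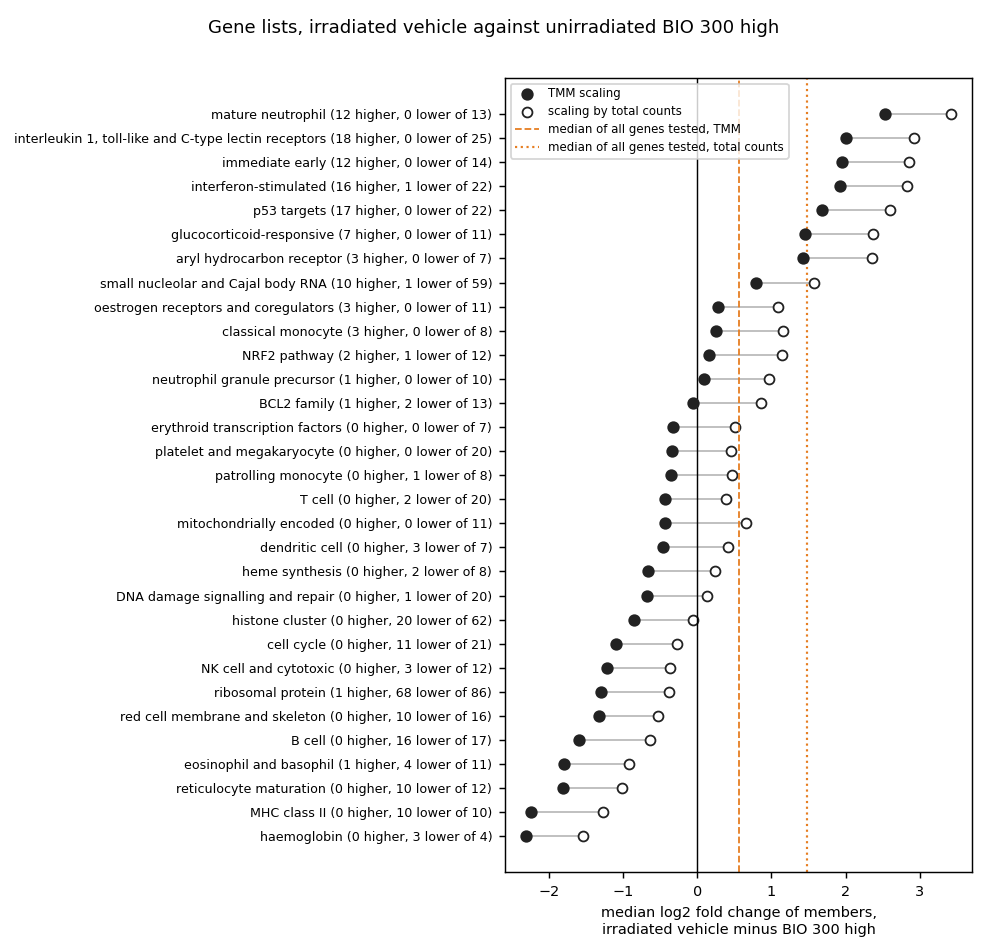
Each row is a gene list, with the median log2 fold change of its members (irradiated minus BIO 300, 6 mice each) on the horizontal axis, scaled by TMM (filled) or by total counts (open). Orange lines give the median of all genes tested, 0.56 and 1.49, and labels count the members called. Neutrophil, innate receptor, immediate early, interferon and p53 lists lie to the right, and haemoglobin, MHC class II, reticulocyte and B cell lists to the left.

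Genes induced by p53 were higher after TBI. Of 22 targets, 17 were called higher and 0 lower, with a median log2 fold change of 1.69. Against the same 6 vehicle mice, 18 were higher after TBI (19.6% of all genes were, and 36.0% changed either way) and 3 after BIO 300 (17.3% and 47.8%), in fits that share their controls. With total counts these were 13 and 1, with 2 and 14 lower. Every value against vehicle mice after BIO 300 depends on the scaling in this way, since total counts moved the median of all genes in that fit from -0.48 to -1.96 (after TBI, from 0.09 to -0.28). Cdkn1a (ENSMUSG00000023067, chr17:29090976-29100727, plus strand), which encodes the p21 inhibitor of cyclin-dependent kinases, ranged from 16.1 to 77.2 CPM (median 25.8) in irradiated mice and from 1.04 to 2.87 CPM (median 2.44) in BIO 300 mice. The groups did not overlap, mouse 51 was the highest, and the log2 fold change was 3.91 (SE 0.43, adjusted p = 4.41e-05). Aen, a nuclease of the apoptotic response, ranged from 23.9 to 32.7 CPM (median 26.2) in irradiated mice and from 1.33 to 4.59 CPM (median 3.34) in BIO 300 mice. Its log2 fold change was 3.02 (SE 0.28, adjusted p = 1.9e-05), again without overlap. Sesn2, a stress-inducible regulator of mTORC1, ranged from 19.8 to 42.2 CPM (median 31.2) in irradiated mice and from 3.69 to 5.99 CPM (median 5.08) in BIO 300 mice. The groups were again separate, with a log2 fold change of 2.54 (SE 0.22, adjusted p = 1.42e-05). In vehicle mice, Sesn2 lay at 4.71 to 7.11 CPM (median 5.09). Trp53inp1, a p53-induced mediator of cell death, ranged from 207 to 639 CPM (median 464) in irradiated mice and from 142 to 197 CPM (median 189) in BIO 300 mice. Its change was smaller, 1.28 (SE 0.24, adjusted p = 0.00166), and the lowest irradiated and highest BIO 300 mouse were close, overlapping on the scale of the 12 mice alone. The death receptor gene Fas had a log2 fold change of 2.42 (adjusted p = 4.33e-05), and the proapoptotic genes Bax and Pmaip1 had 1.56 (adjusted p = 5.11e-05) and 1.59 (adjusted p = 0.00239). The 5 targets that were not called were Phlda3 (0.90), Polk (0.78), Mdm2 (0.78), Rrm2b (-0.03) and Sesn1 (-0.59).

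Of 20 genes of DNA damage signalling and repair, 0 were called higher and 1 lower, with a median of -0.68 that became 0.14 with total counts. Among all genes 19.6% were higher and 4.59% lower, so the share of lower genes was near that of all genes. Leaving out mice 43, 49 and 51, 2 were lower. Parp1, which senses strand breaks, ranged from 4.25 to 19.7 CPM (median 5.98) in irradiated mice and from 8.72 to 20.2 CPM (median 17.3) in BIO 300 mice. The groups overlapped and the log2 fold change was -1.06 (SE 0.36, adjusted p = 0.0419). This call was lost in 9 of the 12 fits that left out 1 mouse (log2 fold change -1.07 to -0.87 there), and with total counts (-0.06). Fancd2 and Brca2, of the Fanconi anaemia and homologous recombination pathways, were not called, at -0.95 (SE 0.37, adjusted p = 0.0669) and -0.86 (SE 0.33, adjusted p = 0.0607).

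Among 13 BCL2 family genes, 1 was higher and 2 were lower, or 2 and 2 without mice 43, 49 and 51. Of all genes, 19.6% were higher and 4.59% lower. Mcl1, an antiapoptotic protein on which neutrophils depend, ranged from 243 to 669 CPM (median 509) in irradiated mice and from 122 to 199.9 CPM (median 166) in BIO 300 mice. All irradiated mice were above all BIO 300 mice, a log2 fold change of 1.45 (SE 0.25, adjusted p = 0.000989). Bcl2l1, which encodes BCL-XL, the survival factor of maturing red cells and platelets, ranged from 149 to 1142 CPM (median 516) in irradiated mice and from 1501 to 2895 CPM (median 2241) in BIO 300 mice. It was lower in every irradiated mouse, with -2.01 (SE 0.41, adjusted p = 0.00295). Its value against vehicle mice was -0.53 after TBI, not called, and 1.70 after BIO 300, called higher, and with total counts -1.04, called lower, and 0.21, not called. Bcl2, abundant in lymphocytes, was not called at 0.91 (SE 0.29, adjusted p = 0.0319).

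Neutrophil genes showed the highest median of the blood cell lists. Of 13 genes of mature neutrophils, 12 were called higher and 0 lower, with a median of 2.53 and 2.35 without mice 43, 49 and 51. Csf3r (ENSMUSG00000028859, chr4:126024550-126044440, plus strand), the receptor for granulocyte colony-stimulating factor, ranged from 575 to 3086 CPM (median 2190) in irradiated mice and from 109 to 193 CPM (median 136) in BIO 300 mice. The groups were far apart, and the log2 fold change was 3.67 (SE 0.38, adjusted p = 3.18e-05). Cxcr2, the chemokine receptor that draws neutrophils from the marrow, ranged from 186 to 966 CPM (median 716) in irradiated mice and from 35.2 to 57.5 CPM (median 46.0) in BIO 300 mice. Its log2 fold change was 3.75 (SE 0.36, adjusted p = 2.01e-05), and its value against vehicle mice was 3.13 after TBI and -0.42, not called, after BIO 300 (2.70 and -1.95 with total counts, both called). Fpr1, a receptor for formylated bacterial peptides, ranged from 11.4 to 48.5 CPM (median 33.1) in irradiated mice and from 1.64 to 3.39 CPM (median 2.59) in BIO 300 mice. It was again higher in every irradiated mouse (3.66, SE 0.35, adjusted p = 2.01e-05). The member not called was Retnlg, at 0.44 (SE 0.40, adjusted p = 0.415). Summed over the list, the level in irradiated mice ran from 1538 to 7419 CPM and in BIO 300 mice from 579.6 to 1039 CPM.

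Of 10 genes for granule proteins that neutrophils make as precursors in the marrow, 1 was higher and 0 lower, with a median of 0.10, and 1 higher and 1 lower without mice 43, 49 and 51. The share of higher genes was below the 19.6% of all genes. The higher one, Lcn2, which encodes a protein that withholds iron from bacteria, ranged from 46.1 to 179.6 CPM (median 86.1) in irradiated mice and from 2.45 to 6.61 CPM (median 5.70) in BIO 300 mice. The groups were separate (4.01, SE 0.35, adjusted p = 1.34e-05), with mouse 51 the highest after TBI.

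Receptors and signalling genes of innate immunity were higher in irradiated mice. Of 25 genes of interleukin 1, toll-like and C-type lectin receptors, 18 were higher and 0 lower, with a median of 2.01. Il1r2, the decoy receptor for interleukin 1, ranged from 11.4 to 50.9 CPM (median 39.3) in irradiated mice and from 2.28 to 3.91 CPM (median 3.16) in BIO 300 mice. These groups were apart (3.43, SE 0.33, adjusted p = 1.91e-05). Tlr6, which pairs with TLR2 to bind bacterial lipopeptides, ranged from 16.8 to 63.5 CPM (median 44.9) in irradiated mice and from 2.37 to 6.42 CPM (median 4.46) in BIO 300 mice. Every irradiated mouse was above every BIO 300 mouse, and the log2 fold change was 3.18 (SE 0.34, adjusted p = 4.15e-05). Vehicle mice lay between, at 12.9 to 16.6 CPM (median 15.6), and Tlr6 was called higher after TBI (1.37) and lower after BIO 300 (-1.61) than in vehicle mice. With total counts the first was not called (0.95) and the second was (-3.11). Nlrp3, the sensor of the inflammasome, ranged from 33.4 to 141 CPM (median 99.5) in irradiated mice and from 6.90 to 14.3 CPM (median 10.1) in BIO 300 mice. It differed by 3.09 (SE 0.34, adjusted p = 4.47e-05). Clec7a, the beta-glucan receptor dectin-1, ranged from 100.4 to 573 CPM (median 415) in irradiated mice and from 37.6 to 92.2 CPM (median 47.0) in BIO 300 mice. Its groups were apart on this scale but overlapped on that of the 12 mice alone (2.68, SE 0.39, adjusted p = 0.000286). The members that were not called were Il18 (1.36), Tlr1 (0.99), Il1r1 (0.96), Casp1 (0.95), Tlr7 (0.54), Il1a (0.12) and Tlr9 (-0.63), the last a sensor of unmethylated DNA.

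Immediate early genes, which cells switch on within minutes of a stimulus, were higher after TBI than after BIO 300 in 12 of 14 cases. In this comparison 0 were lower and the median was 1.95. Against vehicle mice, 9 were higher and 1 lower after TBI, and 1 higher and 3 lower after BIO 300. Of all genes, 19.6% were higher and 16.4% lower after TBI, and 17.3% and 30.5% after BIO 300. With total counts, 4 were higher and 1 lower after TBI, and 0 higher and 13 lower after BIO 300. In that BIO 300 fit, 15407 of 23513 genes were lower. Junb, a subunit of the AP-1 transcription factor, ranged from 92.8 to 387 CPM (median 241) in irradiated mice and from 24.5 to 49.6 CPM (median 36.1) in BIO 300 mice. Both groups kept apart (2.5, SE 0.33, adjusted p = 0.00016). Zfp36, which destabilizes cytokine mRNA, ranged from 75.9 to 232 CPM (median 176) in irradiated mice and from 22.2 to 42.9 CPM (median 32.1) in BIO 300 mice. Its change was 2.19 (SE 0.29, adjusted p = 0.000163), again with separate groups. Dusp1, a phosphatase that switches off MAP kinases, ranged from 84.2 to 342 CPM (median 270.2) in irradiated mice and from 35.0 to 84.0 CPM (median 48.7) in BIO 300 mice. The lowest irradiated and the highest BIO 300 mouse were nearly equal, and the groups overlapped on the scale of the 12 mice alone (2.10, SE 0.32, adjusted p = 0.0004). Jund, another AP-1 subunit, was not called, at -0.94 (SE 0.34, adjusted p = 0.0508).

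Of 8 classical monocyte genes, 3 were higher and 0 lower, with a median of 0.25 that became -0.34 without mice 43, 49 and 51. The median of all genes moved as well, from 0.56 to -0.03. Cd14, the coreceptor for lipopolysaccharide, ranged from 10.1 to 37.2 CPM (median 18.5) in irradiated mice and from 0.569 to 1.93 CPM (median 1.34) in BIO 300 mice. No irradiated mouse overlapped a BIO 300 mouse (3.83, SE 0.35, adjusted p = 1.84e-05). Csf1r, the receptor for colony-stimulating factor 1, ranged from 72.6 to 173 CPM (median 111) in irradiated mice and from 13.3 to 47.4 CPM (median 28.9) in BIO 300 mice. It was higher in every irradiated mouse (1.94, SE 0.28, adjusted p = 0.000316). Fn1, which encodes fibronectin, a protein also made by the liver, ranged from 0.858 to 3726 CPM (median 11.4) in irradiated mice and from 1.14 to 31.5 CPM (median 8.27) in BIO 300 mice. The groups overlapped and mouse 51 alone held the highest value. Its log2 fold change of 5.64 (SE 1.86, adjusted p = 0.0364) lost its call in 8 of the 12 fits that left out 1 mouse (log2 fold change 2.48 to 6.14 there) and was -1.01 without mice 43, 49 and 51. Lyz2, the lysozyme of monocytes and neutrophils, ranged from 984 to 2491 CPM (median 1178) in irradiated mice and from 990 to 1274 CPM (median 1180) in BIO 300 mice. The groups overlapped (0.21, SE 0.25, adjusted p = 0.54, interval -0.32 to 0.73). Of 8 patrolling monocyte genes, 0 were higher and 1 was lower, with 2 lower without mice 43, 49 and 51. The 1 was Cd36, a scavenger receptor found also on platelets and reticulocytes, which ranged from 131 to 246 CPM (median 164) in irradiated mice and from 285 to 532 CPM (median 324) in BIO 300 mice. Its groups were separate (-1.10, SE 0.22, adjusted p = 0.00273), but its call was lost with total counts (-0.20) and without mouse 47 (-0.95).

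Provisional symbols (Gm numbers and Rik) aside, the 10 genes with the largest stable increases joined interferon and neutrophil genes with others. Stable genes were called in every fit that left out 1 mouse and under each scaling and low-count filter. They also had no overlap between the groups and at least 10 CPM in 1 group. Slfn4 (ENSMUSG00000000204, chr11:83175186-83190216, plus strand), a Schlafen gene of myeloid cells, ranged from 898 to 4514 CPM (median 2658) in irradiated mice and from 3.48 to 27.5 CPM (median 6.17) in BIO 300 mice. The groups were separate by a wide margin (7.97, SE 0.74, adjusted p = 1.84e-05). In vehicle mice it lay at 26.9 to 72.3 CPM (median 55.3), and its log2 fold change was 5.56 after TBI and -2.20 after BIO 300. Ifitm1, an interferon-induced membrane protein that restricts viral entry, ranged from 78.2 to 473 CPM (median 268) in irradiated mice and from 3.79 to 5.47 CPM (median 4.01) in BIO 300 mice. The BIO 300 mice were close together and all below the irradiated mice (5.90, SE 0.40, adjusted p = 4.42e-06). Lrg1, a secreted glycoprotein of neutrophils and liver, ranged from 98.2 to 595 CPM (median 189) in irradiated mice and from 4.34 to 7.20 CPM (median 5.68) in BIO 300 mice. Its log2 fold change was 5.32 (SE 0.42, adjusted p = 1.07e-05), with mouse 51 the highest. Trpm2, a calcium channel opened by oxidative stress, ranged from 87.3 to 357 CPM (median 237) in irradiated mice and from 2.75 to 11.1 CPM (median 4.65) in BIO 300 mice. It was higher in every irradiated mouse (5.20, SE 0.45, adjusted p = 1.34e-05). Entpd3, an ectonucleotidase, differed by 7.08 (SE 0.68, adjusted p = 2.01e-05) and Gpr182, an atypical chemokine receptor, by 5.16 (SE 0.33, adjusted p = 3.86e-06). Trim30b, at 5.29 (SE 0.47, adjusted p = 1.39e-05), has near-identical neighbours in its gene family, so its counts are uncertain. Orm2, an acute-phase protein of the liver, ranged from 2.64 to 99.8 CPM (median 6.18) in irradiated mice and from 0 to 1.16 CPM (median 0.164) in BIO 300 mice. It was separate between groups (6.00, SE 1.13, adjusted p = 0.00179), but mouse 51 was far above the rest. Fgfr1, a fibroblast growth factor receptor, ranged from 1.68 to 155 CPM (median 2.00) in irradiated mice and from 0.434 to 1.48 CPM (median 0.681) in BIO 300 mice. The log2 fold change was 5.25 (SE 1.26, adjusted p = 0.00794), and without mice 43, 49 and 51 it was 1.00 and no longer called.

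Most interferon-stimulated genes were higher after TBI. Of 22, 16 were called higher after TBI and 1 lower, with a median of 1.92 and 1.79 without mice 43, 49 and 51. Oas2 (ENSMUSG00000032690, chr5:120730333-120749853, minus strand), which makes oligoadenylates that activate an antiviral ribonuclease, ranged from 51.6 to 189 CPM (median 119) in irradiated mice and from 0.284 to 3.40 CPM (median 1.21) in BIO 300 mice. The groups did not overlap (6.07, SE 0.59, adjusted p = 2.14e-05), and the values against vehicle mice were 4.36 after TBI and -1.51 after BIO 300. Oasl2, a related gene, ranged from 80.5 to 321 CPM (median 193) in irradiated mice and from 0.948 to 12.7 CPM (median 4.62) in BIO 300 mice. Its log2 fold change was 5.06 (SE 0.57, adjusted p = 5.23e-05). Ifit3, which binds viral RNA together with other IFIT proteins, differed by 4.54 (SE 0.55, adjusted p = 9.12e-05), although its near-identical copy Ifit3b makes the count uncertain. Rsad2 (ENSMUSG00000020641, chr12:26442746-26456452, minus strand), which encodes the antiviral enzyme viperin, ranged from 236 to 2853 CPM (median 1266) in irradiated mice and from 5089 to 9122 CPM (median 6845) in BIO 300 mice. It ran against the list, lower in every irradiated mouse (-2.30, SE 0.50, adjusted p = 0.00425). Relative to vehicle mice it was at -0.32, not called, after TBI and at 2.20, called higher, after BIO 300, and with total counts neither was called (-0.85 and 0.70). Isg15, a ubiquitin-like modifier looked at after its values were seen, ranged from 20.2 to 141 CPM (median 90.2) in irradiated mice and from 106 to 167 CPM (median 136) in BIO 300 mice. The groups overlapped and it was not called, at -0.71 (SE 0.35, adjusted p = 0.131) with TMM and 0.12 with total counts.

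The interferon-stimulated response element (ISRE), the site bound by the ISGF3 factor, was searched in RefSeq promoters by its core, GAAA and GAAA with any 2 bases between them, on both strands, with overlapping matches counted. Each window held 250 bases before to 50 after the transcription start (GRCm38.p6). The core was present in 3.99% of the 27025 genes with a window. Of 22 interferon-stimulated genes, 15 had a window and 9 of these held the core. They were 6 of the 9 called higher, the 1 called lower and 2 of the 5 not called. The 200 bases before the start are shown for a gene that was higher (Ifit1), one that was lower (Rsad2) and one that was not called (Isg15), since all hold the core, in capitals. A match describes the letters and does not show that the site is used.
Ifit1 (chr19:34640689-34640888, plus strand): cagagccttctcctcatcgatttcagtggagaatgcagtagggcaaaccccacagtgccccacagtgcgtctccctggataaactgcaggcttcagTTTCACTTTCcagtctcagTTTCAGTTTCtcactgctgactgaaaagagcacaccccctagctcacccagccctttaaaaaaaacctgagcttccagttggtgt
Rsad2 (chr12:26456453-26456652, minus strand): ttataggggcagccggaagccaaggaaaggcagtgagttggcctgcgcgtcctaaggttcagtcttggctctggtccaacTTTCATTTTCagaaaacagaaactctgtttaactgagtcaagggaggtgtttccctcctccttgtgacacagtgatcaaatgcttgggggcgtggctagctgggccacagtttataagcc
Isg15 (chr4:156200819-156201018, minus strand): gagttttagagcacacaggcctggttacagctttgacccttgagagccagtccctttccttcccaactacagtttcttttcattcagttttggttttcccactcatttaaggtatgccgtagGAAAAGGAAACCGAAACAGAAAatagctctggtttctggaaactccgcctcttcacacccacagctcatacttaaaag
The core was counted 2 times before the start of Ifit1, 1 time in Rsad2 and 3 times, overlapping, in Isg15. Ifit1, an RNA-binding antiviral protein shown after its values were seen, had a log2 fold change of 2.39 (SE 0.38, adjusted p = 0.000542) between irradiated and BIO 300 mice. Genes with this core in the promoter thus lay on both sides of 0 in the comparison.

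B cell genes were lower after TBI. Of 17, 16 were called lower and 0 higher, with a median of -1.59. With total counts 7 were called, with a median of -0.64. Both groups were below vehicle mice, with all 17 called lower after TBI and 15 after BIO 300 (16.4% and 30.5% of all genes), and 17 in each with total counts. Ighd (ENSMUSG00000104213, chr12:113406604-113416324, minus strand), the heavy chain of the IgD that marks mature naive B cells, ranged from 2.64 to 8.71 CPM (median 4.19) in irradiated mice and from 39.8 to 135 CPM (median 76.2) in BIO 300 mice. The groups did not overlap (-4.07, SE 0.36, adjusted p = 1.48e-05), and vehicle mice were above both, at 282 to 451 CPM (median 318). Tnfrsf13c, the receptor for the B cell survival factor BAFF, ranged from 1.05 to 3.28 CPM (median 1.69) in irradiated mice and from 6.73 to 20.5 CPM (median 12.6) in BIO 300 mice. Every irradiated mouse was below every BIO 300 mouse (-2.90, SE 0.35, adjusted p = 7.93e-05). Fcer2a, the low-affinity IgE receptor CD23 of follicular B cells, ranged from 1.14 to 4.77 CPM (median 3.22) in irradiated mice and from 9.57 to 39.0 CPM (median 19.3) in BIO 300 mice. Its log2 fold change was -2.90 (SE 0.42, adjusted p = 0.000285). Ighm, the heavy chain of IgM, ranged from 41.8 to 149 CPM (median 86.3) in irradiated mice and from 82.0 to 268 CPM (median 169) in BIO 300 mice. Here the groups overlapped, and the change of -1.05 (SE 0.32, adjusted p = 0.0272) was not called with total counts (-0.09), nor in 5 of the 12 fits that left out 1 mouse (log2 fold change -1.00 to -0.88 there). Vpreb3 (-4.50, adjusted p = 6.71e-05) and Ccr6 (-4.51, adjusted p = 1.91e-05) had larger log2 fold changes at levels under 10 CPM, and Cd22, an inhibitory coreceptor, was not called (-0.35, SE 0.32, adjusted p = 0.421). Hvcn1, a proton channel of B cells and phagocytes that belongs to none of the lists, was among the stable decreases (-2.69, SE 0.31, adjusted p = 6.1e-05).

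Genes of antigen presentation by MHC class II were lower in all 10 cases, with a median of -2.24, and 7 of 10 were called with total counts. Ciita, the master regulator of the class II genes, ranged from 1.03 to 6.11 CPM (median 3.14) in irradiated mice and from 8.72 to 38.6 CPM (median 21.4) in BIO 300 mice. Irradiated mice were all below BIO 300 mice (-2.84, SE 0.41, adjusted p = 0.000305). H2-Aa, the alpha chain of the I-A molecule, ranged from 15.7 to 49.2 CPM (median 32.9) in irradiated mice and from 88.2 to 319.7 CPM (median 159.7) in BIO 300 mice. It was lower in every irradiated mouse (-2.61, SE 0.33, adjusted p = 0.000122). H2-Ob, a subunit of the H2-O molecule found mostly in B cells, differed by -2.39 (SE 0.35, adjusted p = 0.000305), and Cd74, the invariant chain, by -2.18 (SE 0.36, adjusted p = 0.000716). All 10 were below vehicle mice in each group, with a median of -3.98 after TBI and -1.42 after BIO 300. Of all genes, 16.4% and 30.5% were called lower. Of 7 dendritic cell genes, 3 were lower and 0 higher. They were Siglech (-5.41, adjusted p = 4.86e-05), a receptor of plasmacytoid dendritic cells, Flt3 (-1.95, adjusted p = 0.00659), a growth factor receptor, and Ccr9 (-1.46, adjusted p = 0.0339), a gut-homing receptor. With total counts, Flt3 (-1.12) and Ccr9 (-0.56) were not called, nor was Ccr9 in 6 of the 12 fits that left out 1 mouse (log2 fold change -1.57 to -1.19 there). Xcr1 and Clec9a, of cross-presenting dendritic cells, were not called, at -0.37 (SE 0.31, adjusted p = 0.384) and 0.22 (SE 0.30, adjusted p = 0.586). Their intervals were -1.04 to 0.31 and -0.41 to 0.86.

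T cell genes were called lower than in vehicle mice in both groups, all 20 after TBI and all 20 after BIO 300, with medians of -2.41 and -1.93 (of all genes, 16.4% and 30.5% were lower). The same counts with total counts stand beside 15407 of 23513 genes lower after BIO 300. The comparison between the groups called 2 of 20 lower and 0 higher. Its median of -0.43 became 0.39 with total counts. Cd3e, a signalling chain of the T cell receptor, ranged from 8.24 to 31.5 CPM (median 25.1) in irradiated mice and from 7.11 to 34.2 CPM (median 23.6) in BIO 300 mice. The groups overlapped, and the interval of its log2 fold change was -0.97 to 0.86. Cd4, the coreceptor of helper T cells, ranged from 3.39 to 15.7 CPM (median 10.7) in irradiated mice and from 4.45 to 17.3 CPM (median 9.56) in BIO 300 mice. Its interval was -0.96 to 0.83, and those of Cd6 (-0.86 to 0.95) and Cd28 (-0.95 to 0.26) were also within 1 of 0. These intervals are for TMM, and with total counts the values were 0.77 (Cd3e), 0.74 (Cd4), 0.86 (Cd6) and 0.48 (Cd28). Lck, the kinase bound to CD4 and CD8, ranged from 5.80 to 22.1 CPM (median 18.6) in irradiated mice and from 11.8 to 48.8 CPM (median 36.4) in BIO 300 mice. It missed the threshold with -1.08 (SE 0.39, adjusted p = 0.0525), and was called without mouse 45 (-1.20) or mouse 47 (-1.25), with DESeq2 (-1.09) and with the stricter low-count filter (-1.25). Tcf7, Ccr7 and Trbc2, of naive T cells and the T cell receptor, were not called either, at -0.54 (SE 0.44, adjusted p = 0.355), -0.79 (SE 0.48, adjusted p = 0.209) and -0.86 (SE 0.40, adjusted p = 0.114). The 2 members that were called encode the chains of CD8, the coreceptor of cytotoxic T cells, and are described after their values were seen. Cd8a ranged from 0.250 to 0.914 CPM (median 0.402) in irradiated mice and from 0.853 to 7.71 CPM (median 3.11) in BIO 300 mice. Cd8b1 ranged from 0.0278 to 0.585 CPM (median 0.207) in irradiated mice and from 0.758 to 6.93 CPM (median 4.42) in BIO 300 mice. The irradiated mice were below the BIO 300 mice for Cd8b1 (-4.17, SE 0.69, adjusted p = 0.000715), whereas the groups overlapped for Cd8a (-2.95, SE 0.54, adjusted p = 0.00146). With total counts Cd8a (-2.14) and Cd8b1 (-3.37) were called as well.

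**Figure D2:**
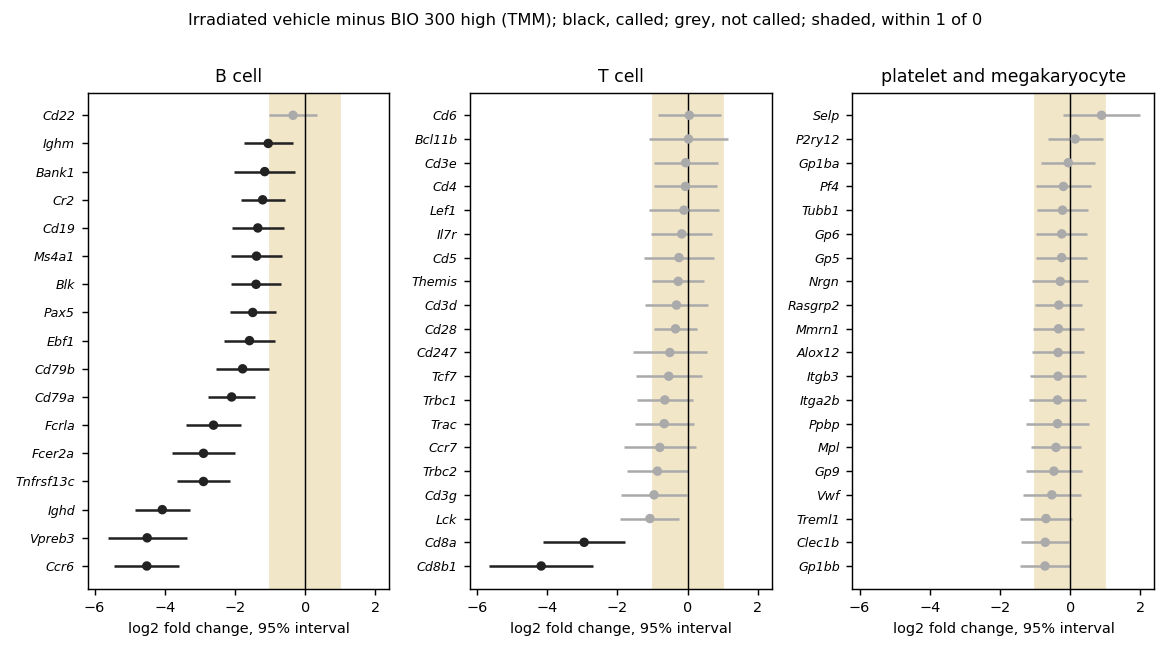
Points give the log2 fold change of each B cell, T cell and platelet gene (irradiated minus BIO 300, TMM, 6 mice each) and lines its 95% interval. Black marks called genes and the band marks values within 1 of 0. Of the B cell genes 16 of 17 are called, of the T cell genes only Cd8a and Cd8b1, and of the platelet genes 0 of 20.

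Of 12 genes of NK and cytotoxic cells, 3 were lower and 0 higher, and 0 were called with total counts. With mice 43, 49 and 51 left out, 7 of 12 were lower. Ccl5, a chemokine stored by cytotoxic cells, ranged from 2.47 to 20.2 CPM (median 11.9) in irradiated mice and from 10.7 to 102 CPM (median 30.3) in BIO 300 mice. The groups overlapped (-2.13, SE 0.59, adjusted p = 0.0174), and the call was lost with total counts (-1.32). Gzma, the protease granzyme A, ranged from 5.41 to 45.0 CPM (median 25.8) in irradiated mice and from 12.9 to 179.8 CPM (median 58.1) in BIO 300 mice. Its change of -1.68 (SE 0.58, adjusted p = 0.0445) was lost in 8 of the 12 fits that left out 1 mouse (log2 fold change -1.74 to -1.22 there) and with total counts (-0.87). Ncr1, the activating receptor NKp46, missed the threshold (-1.46, SE 0.52, adjusted p = 0.0507), and was called in 7 of 19 alternatives, among them DESeq2 (-1.47), the stricter low-count filter (-1.63) and the fit without mice 43, 49 and 51 (-1.41). Against vehicle mice, 9 of 12 were lower after TBI and 0 after BIO 300 (16.4% and 30.5% of all genes), or 11 and 6 with total counts. Among 11 eosinophil and basophil genes, 4 were lower and 1 higher. The lower ones were Ms4a2 (-4.02), Mcpt8 (-3.86), Fcer1a (-2.83) and Cd200r3 (-2.36), of the high-affinity IgE receptor and the granules and surface of basophils. The higher one was Siglecf (1.33), a lectin of eosinophils. Fcer1a was not called with total counts (-1.95). Ccr3, the eotaxin receptor, was not called (0.60, SE 0.39, adjusted p = 0.242).

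Genes of maturing red cells were lower in irradiated than in BIO 300 mice. Haemoglobin genes took 1.63 to 13.6% of reads (mean 7.98% ± 4.23, SD, n = 6) after TBI and 10.8 to 22.1% (16.1% ± 4.10, SD, n = 6) after BIO 300. A 2-sided exact permutation test gave p = 0.0108, or 0.0144 adjusted over 8 shares. Vehicle mice lay at 8.30 to 12.4%. The study's methods name a kit that depletes globin RNA whereas the labels name poly(A) selection, and a depletion step would alter these levels. CPM on the TMM scale divide by effective library sizes and so differ from shares of raw reads, and in BIO 300 mice they are larger. Of the 4 genes, 3 were called lower. Hba-a2 (ENSMUSG00000069917, chr11:32296489-32297298, plus strand), an alpha-globin gene, ranged from 162 to 905 CPM (median 432) in irradiated mice and from 1214 to 6444 CPM (median 2637) in BIO 300 mice. The groups did not overlap (-2.67, SE 0.51, adjusted p = 0.00197). Hba-a1 (-2.46, SE 0.52, adjusted p = 0.00362) and Hbb-bt (-2.15, SE 0.58, adjusted p = 0.0151) were also lower, and Hbb-bs was not called (-1.73, SE 0.85, adjusted p = 0.13). Since Hba-a1 and Hba-a2, and Hbb-bs and Hbb-bt, are near-identical copies, the split of reads within each pair is uncertain.

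Of 16 genes of the red cell membrane and skeleton, 10 were lower and 0 higher, with a median of -1.32. Slc4a1, the anion exchanger band 3, ranged from 127 to 1669 CPM (median 809) in irradiated mice and from 2769 to 5423 CPM (median 4112) in BIO 300 mice. Its levels did not overlap between groups (-2.33, SE 0.50, adjusted p = 0.0042). Add2 and Sptb, beta-adducin and beta-spectrin of the membrane skeleton, differed by -2.17 (SE 0.46, adjusted p = 0.00392) and -2.14 (SE 0.48, adjusted p = 0.00532). Epb41, protein 4.1, ranged from 1215 to 10830 CPM (median 3589) in irradiated mice and from 8183 to 17540 CPM (median 12840) in BIO 300 mice. Its overlapping groups gave -1.49 (SE 0.51, adjusted p = 0.0441), a call lost in 9 of the 12 fits that left out 1 mouse (log2 fold change -1.56 to -1.35 there) and with total counts (-0.77). In the list as a whole, 4 genes were called lower with total counts. Against vehicle mice, all 16 were higher after BIO 300 and 4 of 16 after TBI (17.3% and 19.6% of all genes). With total counts, 1 was higher after BIO 300, and 3 were higher and 5 lower after TBI.

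Genes that act as reticulocytes mature were lower in 10 of 12 cases, with 0 higher and a median of -1.81. With total counts, 6 were called. Bpgm, which makes the 2,3-bisphosphoglycerate that tunes oxygen release, ranged from 336 to 5018 CPM (median 1996) in irradiated mice and from 8532 to 16470 CPM (median 12640) in BIO 300 mice. The groups were separate (-2.49, SE 0.57, adjusted p = 0.00593). Slc25a37, the mitochondrial iron importer mitoferrin, ranged from 687 to 7091 CPM (median 2409) in irradiated mice and from 9487 to 18870 CPM (median 15430) in BIO 300 mice. It was again lower in every irradiated mouse (-2.37, SE 0.54, adjusted p = 0.00553). Bnip3l, the receptor that clears mitochondria from reticulocytes, differed by -2.36 (SE 0.53, adjusted p = 0.00555), a pseudogene copy making its count uncertain. Tent5c, a poly(A) polymerase, differed by -2.18 (SE 0.61, adjusted p = 0.0177), and this call was lost without mouse 49 (-2.05). All 12 were higher after BIO 300 than in vehicle mice and 1 of 12 after TBI (17.3% and 19.6% of all genes). With total counts 0 were called after BIO 300, and 1 higher and 6 lower after TBI. Of 8 heme synthesis genes, 2 were lower and 0 higher, and 4 were lower without mice 43, 49 and 51. The median of -0.66 became 0.25 with total counts. Fech, which inserts iron into the ring, ranged from 911 to 10810 CPM (median 4022) in irradiated mice and from 13730 to 23770 CPM (median 17670) in BIO 300 mice. Its change of -1.99 (SE 0.54, adjusted p = 0.0145) was lost without mouse 49 (-1.88). Urod, an earlier enzyme of the pathway, was called at -1.24 (SE 0.35, adjusted p = 0.0194), but not without mouse 49 (-1.17) or with total counts (-0.43). Alas2, the rate-limiting enzyme in red cells, was not called as a gene (-1.72, SE 0.70, adjusted p = 0.0775). Its share of reads was 3.44% ± 1.83 (SD, n = 6) after TBI and 6.84% ± 0.87 (SD, n = 6) after BIO 300, and the 2-sided exact permutation test of this share gave p = 0.00433 (0.0115 adjusted over 8 shares). The motif AGATAA, a letter match to the binding site of GATA factors searched on both strands, was in 12.7% of all RefSeq promoter windows. It was in 1 of 4 haemoglobin, 2 of 6 heme synthesis, 3 of 10 membrane and 2 of 9 reticulocyte genes with a window.

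Cell cycle genes were lower after TBI than after BIO 300, 11 of 21 called and 0 higher, but 0 of 21 were called with total counts. Mcm6, a subunit of the replicative helicase, ranged from 2.91 to 15.4 CPM (median 6.80) in irradiated mice and from 15.2 to 25.0 CPM (median 17.5) in BIO 300 mice. The groups nearly separated, with a log2 fold change of -1.34 (SE 0.34, adjusted p = 0.0109) that was -0.55 with total counts. Top2a, topoisomerase II alpha, ranged from 22.6 to 138 CPM (median 63.7) in irradiated mice and from 119.8 to 262 CPM (median 163) in BIO 300 mice. Its change of -1.29 (SE 0.39, adjusted p = 0.0241) was not called without mouse 47 (-1.14) or mouse 49 (-1.18), nor with total counts (-0.49). Birc5, survivin, was called at -1.22 (SE 0.40, adjusted p = 0.035), a call lost in 8 of the 12 fits that left out 1 mouse (log2 fold change -1.26 to -1.08 there) and with total counts (-0.44). Mki67, the proliferation marker, was not called, at -0.38 (SE 0.45, adjusted p = 0.53) with TMM and 0.38 with total counts. Relative to vehicle mice, 16 of 21 were higher after BIO 300 and 4 of 21 after TBI (17.3% and 19.6% of all genes). With total counts 0 were higher in either group. Of 62 histone cluster genes, 20 were lower and 0 higher with TMM, and 0 lower and 3 higher with total counts. Hist1h1d, a linker histone, differed by -1.00 (SE 0.29, adjusted p = 0.0219), and this call was lost in 6 of the 12 fits that left out 1 mouse (log2 fold change -0.99 to -0.87 there) and with total counts (-0.18).

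No platelet gene passed the test between the groups with TMM, and 1 of 20 did with total counts (Selp, higher after TBI at 2.02). Against vehicle mice all 20 were higher after TBI and all 20 after BIO 300 (19.6% and 17.3% of all genes). The medians were 2.58 and 3.12, in fits that share their controls. With total counts 20 and 17 were higher. Between the groups, 0 of 20 were called in either direction. The median of -0.34 became 0.46 with total counts. Pf4 (ENSMUSG00000029373, chr5:90772435-90773383, plus strand), the chemokine platelet factor 4, ranged from 479 to 3148 CPM (median 1609) in irradiated mice and from 1297 to 2425 CPM (median 1920) in BIO 300 mice. The groups overlapped and the interval of the log2 fold change was -0.98 to 0.60. Gp6, the collagen receptor, ranged from 135 to 829.6 CPM (median 409) in irradiated mice and from 360 to 572 CPM (median 539) in BIO 300 mice. Its interval was -0.96 to 0.48. P2ry12, the ADP receptor that clopidogrel blocks, ranged from 616 to 3958 CPM (median 2284) in irradiated mice and from 1511 to 2550 CPM (median 1898) in BIO 300 mice. The interval of -0.64 to 0.93 also lay within 1 of 0, as did those of Gp1ba (-0.82 to 0.72), Tubb1 (-0.95 to 0.52), Gp5 (-0.98 to 0.49) and Rasgrp2 (-0.99 to 0.34). For the remaining 13 genes a difference over 1 on the log2 scale was within the interval. All these intervals are for TMM. With total counts the log2 fold changes were 0.98 (P2ry12), 0.73 (Gp1ba), 0.62 (Pf4), 0.56 (Tubb1), 0.54 (Gp6), 0.53 (Gp5) and 0.49 (Rasgrp2). The intervals of those values are not given here. Ppbp, the precursor of neutrophil-activating peptide 2, ranged from 1714 to 13050 CPM (median 7035) in irradiated mice and from 6411 to 10810 CPM (median 8738) in BIO 300 mice. Irradiated mice spread more widely than BIO 300 mice on both sides (-0.36, SE 0.42, adjusted p = 0.53, interval -1.26 to 0.54). The values of Gp1bb (-0.72, SE 0.33, adjusted p = 0.114) and Clec1b (-0.71, SE 0.32, adjusted p = 0.104) turned to 0.09 and 0.11 with total counts. Selp, P-selectin, was at 0.89 (SE 0.51, adjusted p = 0.189), and at -0.43 without mice 43, 49 and 51. Of 7 erythroid and megakaryocyte transcription factors, 0 were called with TMM and 2 were higher with total counts, Gfi1b among them (1.25). Nfe2 and Gfi1b, which platelets also carry, were at -0.32 (SE 0.29, adjusted p = 0.413) and 0.42 (SE 0.31, adjusted p = 0.31), with the first turning to 0.50 under total counts. Zfpm1, a partner of GATA1, was at -0.90 (SE 0.25, adjusted p = 0.0177) and Bcl11a, the repressor of fetal globin, at -0.99 (SE 0.36, adjusted p = 0.0543), neither past both limits.

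**Figure D3:**
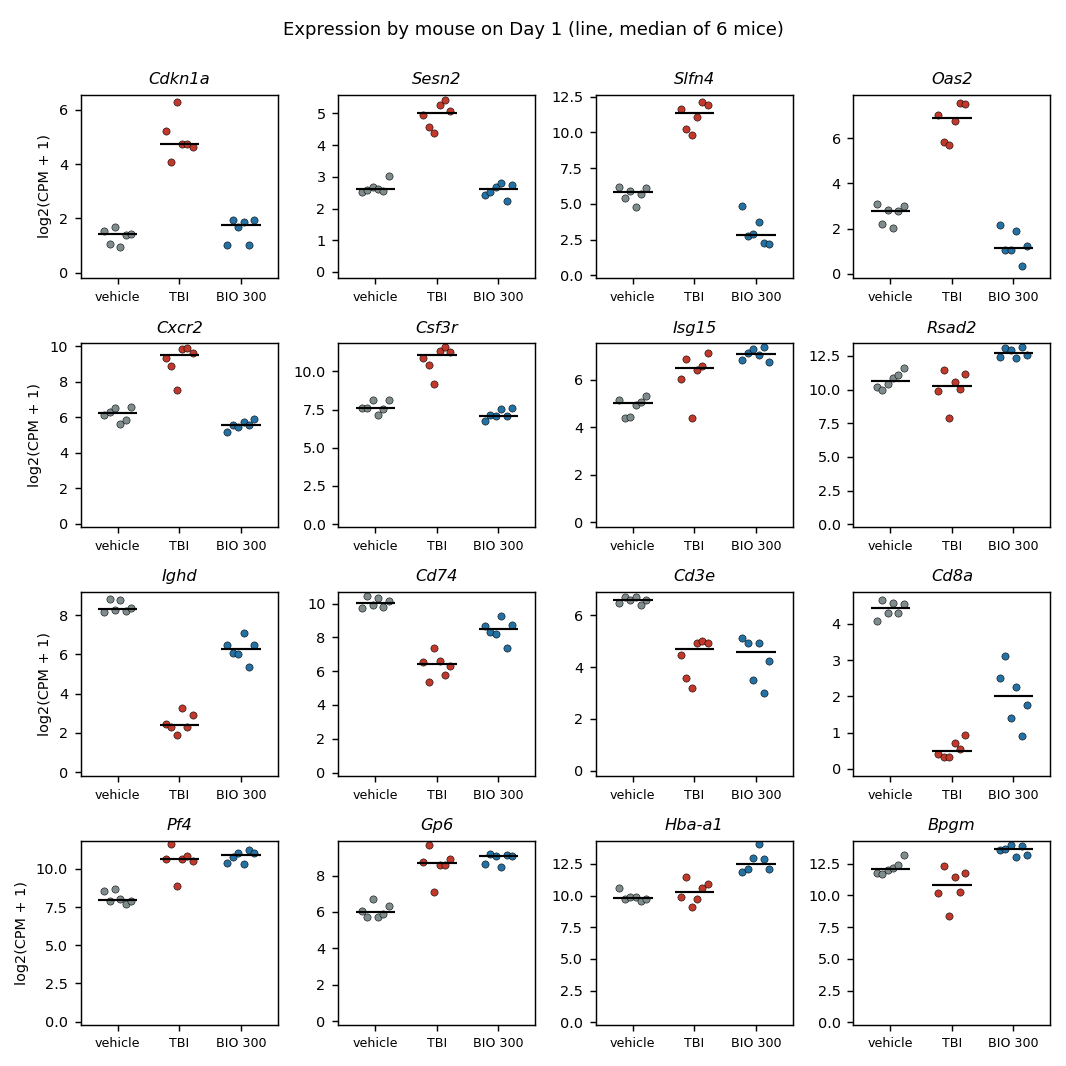
Each panel shows 1 gene, with log2(CPM + 1) on the vertical axis, a point for each of 6 mice per group (vehicle, irradiated vehicle marked TBI, and BIO 300, all Day 1) and a line at the median. Irradiated mice lie above the others for Cdkn1a, Sesn2, Slfn4, Oas2, Cxcr2 and Csf3r and below BIO 300 mice for Rsad2, Ighd, Cd74, Hba-a1 and Bpgm, whereas both groups overlap for Cd3e, Pf4 and Gp6.

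Some genes were chosen for calls in opposite directions against the vehicle mice, which both fits share as controls. Acmsd (ENSMUSG00000026348, chr1:127729413-127767978, plus strand), an enzyme that diverts tryptophan breakdown from NAD synthesis, ranged from 4.88 to 22.4 CPM (median 14.5) in irradiated mice and from 79.3 to 152 CPM (median 99.8) in BIO 300 mice. The groups did not overlap (-2.97, SE 0.37, adjusted p = 9.61e-05), with vehicle mice between at 27.6 to 58.0 CPM (median 31.6). Snx15 (-2.51, adjusted p = 0.000256), of endosomal sorting, Atg4a (-2.21, adjusted p = 0.000251), an autophagy protease, and Sept1 (-2.22, adjusted p = 0.00126), a septin, were also lower after TBI and higher after BIO 300 than in vehicle mice. With total counts they were called lower after TBI and not called after BIO 300, Acmsd at -1.85 and 0.29. In the other direction, ranked by the smaller of the 2 changes against vehicle mice, the first 5 were Orm2 and 4 noncoding genes with little annotation, Gm44292 (6.21), B430010I23Rik (5.78), 1700071M16Rik (5.64) and Gm15832 (5.44). Gm44292, a transcript still to be tested experimentally, ranged from 12.7 to 75.5 CPM (median 50.0) in irradiated mice and from 0.234 to 1.77 CPM (median 0.272) in BIO 300 mice. It was 2.83 after TBI and -3.16 after BIO 300 relative to vehicle mice (2.41 and -4.55 with total counts). Among other stable decreases, Cd59a, the complement inhibitor that protects red cells, ranged from 10.3 to 18.1 CPM (median 12.2) in irradiated mice and from 62.8 to 118 CPM (median 70.1) in BIO 300 mice. Its groups were separate (-2.70, SE 0.23, adjusted p = 1.34e-05). Hagh, a glyoxalase of red cells, ranged from 71.4 to 204 CPM (median 114) in irradiated mice and from 589 to 1017 CPM (median 689) in BIO 300 mice. Every irradiated mouse was lower (-2.68, SE 0.30, adjusted p = 4.71e-05). Cdc25b, a phosphatase that activates cyclin-dependent kinases, differed by -2.85 (SE 0.50, adjusted p = 0.00114). The predicted genes Gm8276 (-2.75), Gm23935 (-2.43) and Gm16580 (-2.38) were the largest stable decreases of their kind.

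**Figure D4:**
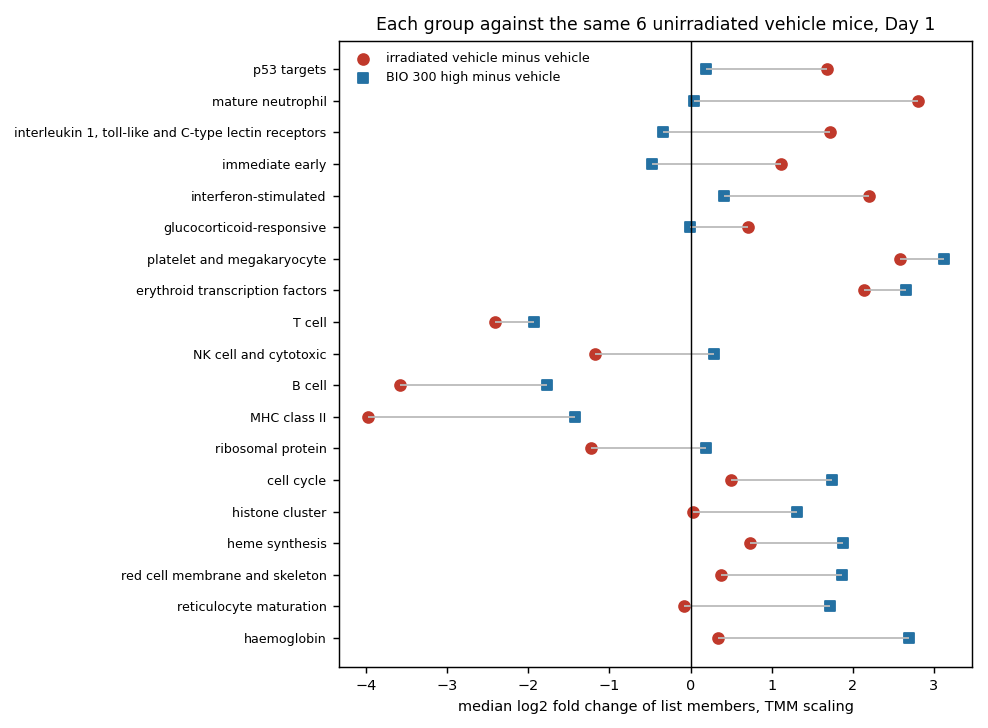
For each gene list, the horizontal axis gives the median log2 fold change against the same 6 vehicle mice (TMM) of irradiated mice (red circles) and BIO 300 mice (blue squares). The T cell list lies at -2.41 and -1.93 and the platelet list at 2.58 and 3.12, whereas the p53, neutrophil and red cell lists lie apart.

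Ribosomal protein genes were lower after TBI in 68 of 86 cases, with 1 higher and a median of -1.30. With total counts, 2 were lower and 4 higher. As a share of all reads, the same scale as total counts, they made up 0.725% ± 0.062 (SD, n = 6) after TBI and 1.08% ± 0.091 (SD, n = 6) after BIO 300, and vehicle mice were above both, at 1.28 to 2.21%. On the TMM scale the order of BIO 300 and vehicle mice turned, with 16 of 86 genes higher after BIO 300 than in vehicle mice and 0 lower (median 0.19). Of all genes in that fit, 17.3% were higher and 30.5% lower. The 2-sided exact permutation test between irradiated and BIO 300 mice gave p = 0.00216 (0.00866 adjusted over 8 shares), the smallest that 6 against 6 mice allow. Rps24 ranged from 100.1 to 218 CPM (median 135) in irradiated mice and from 404 to 689 CPM (median 598) in BIO 300 mice. It was lower in all irradiated mice (-1.99, SE 0.24, adjusted p = 8.07e-05). Rpl31 differed by -1.74 (SE 0.20, adjusted p = 5.54e-05), not called with total counts (-0.84), and Rpl41 by -1.84 (SE 0.45, adjusted p = 0.00889). The 1 higher gene, singled out after its value was seen, was Rps27l, itself a p53 target (1.48, SE 0.50, adjusted p = 0.039). It was not called in 6 of the 12 fits that left out 1 mouse (log2 fold change 0.96 to 1.44 there), nor without mice 43, 49 and 51 (0.41). Of 59 small nucleolar and Cajal body RNAs, which guide the modification of ribosomal and spliceosomal RNA, 10 were higher and 1 lower, a share of higher genes below the 19.6% of all genes. Scarna2 ranged from 29.4 to 81.5 CPM (median 49.4) in irradiated mice and from 7.29 to 19.8 CPM (median 13.4) in BIO 300 mice. It was higher in every irradiated mouse (1.88, SE 0.30, adjusted p = 0.000601). Scarna10 was higher too (1.54, SE 0.45, adjusted p = 0.022), and Scarna13 was not called (-0.38, SE 0.31, adjusted p = 0.365 with TMM, 0.50 with total counts).

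Of 11 genes of oestrogen receptors, which genistein binds, and their coregulators, 3 were higher and 0 lower. Among all genes 19.6% were higher and 4.59% lower. The list median of 0.29 was below the 0.56 of all genes. Ncoa3, a coactivator, ranged from 76.4 to 109.7 CPM (median 95.6) in irradiated mice and from 23.6 to 47.6 CPM (median 39.3) in BIO 300 mice. All irradiated mice were higher than all BIO 300 mice (1.29, SE 0.19, adjusted p = 0.000292). Against vehicle mice with total counts, Ncoa3 was at -0.25, not called, after TBI and at -2.44, called lower, after BIO 300. The medians of all genes in those fits were -0.28 and -1.96. With TMM, 3 members of the list were higher and 0 lower than in vehicle mice after TBI, and 3 higher and 1 lower after BIO 300. The corepressor gene Ncor1 was not called, at 0.34 (SE 0.21, adjusted p = 0.215). Of 7 genes of the aryl hydrocarbon receptor, which binds flavonoids, 3 were higher and 0 lower. Of them, 1 was called without mice 43, 49 and 51. Tiparp, a target that silences the receptor, ranged from 12.9 to 23.4 CPM (median 20.2) in irradiated mice and from 4.36 to 11.4 CPM (median 6.29) in BIO 300 mice. It was higher in every irradiated mouse than in any BIO 300 mouse (1.43, SE 0.24, adjusted p = 0.000812). Against vehicle mice with total counts, Tiparp was at -0.20, not called, after TBI and at -2.56, called lower, after BIO 300. Of 12 genes of NRF2, the regulator of the antioxidant response, 2 were higher and 1 lower (2 and 2 without mice 43, 49 and 51). The share of higher genes was below the 19.6% of all genes. Hmox1, which degrades heme, ranged from 8.43 to 36.7 CPM (median 13.6) in irradiated mice and from 2.62 to 5.22 CPM (median 4.28) in BIO 300 mice. The groups were separate, with mouse 51 the highest (1.92, SE 0.33, adjusted p = 0.000977). Nqo1, a quinone reductase, ranged from 2.64 to 8.43 CPM (median 4.53) in irradiated mice and from 10.3 to 19.4 CPM (median 11.7) in BIO 300 mice. It was lower in every irradiated mouse (-1.57, SE 0.31, adjusted p = 0.00235), though not called with total counts (-0.72). Gclm, of glutathione synthesis, was at -0.60 (SE 0.29, adjusted p = 0.131) with TMM and 0.21 with total counts.

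Glucocorticoid-responsive genes were higher after TBI than after BIO 300 in 7 of 11 cases, 0 lower, with a median of 1.46. Against vehicle mice, 4 were higher after TBI and 0 after BIO 300 (19.6% and 17.3% of all genes), with 0 lower in each. With total counts, 4 were higher after TBI and 9 lower after BIO 300, where 15407 of 23513 genes were lower. Leaving out mice 43, 49 and 51, 3 were higher and the median was 0.40, while that of all genes moved from 0.56 to -0.03. Sgk1, a kinase, ranged from 31.4 to 67.6 CPM (median 51.3) in irradiated mice and from 8.15 to 20.3 CPM (median 15.1) in BIO 300 mice. Its groups did not overlap (1.72, SE 0.27, adjusted p = 0.000472). Mt1, a metallothionein, ranged from 0.112 to 78.0 CPM (median 0.533) in irradiated mice and from 0.347 to 0.937 CPM (median 0.457) in BIO 300 mice. Its groups overlapped, with a few irradiated mice far above the rest. The log2 fold change of 5.44 (SE 1.59, adjusted p = 0.0219) became -0.98 without mice 43, 49 and 51. Klf9, a transcription factor, was at 2.08 (SE 0.66, adjusted p = 0.0318), a call lost in 7 of the 12 fits that left out 1 mouse (log2 fold change 0.97 to 2.09 there), and at 0.17 without the 3 mice. Tsc22d3, which encodes GILZ, was not called (0.78, SE 0.22, adjusted p = 0.0172). Mitochondrially encoded genes were called in 0 of 11 cases. Of these, mt-Co1, a subunit of cytochrome oxidase, ranged from 1099 to 7751 CPM (median 2346) in irradiated mice and from 5308 to 8942 CPM (median 7730) in BIO 300 mice. The groups overlapped (-1.17, SE 0.48, adjusted p = 0.0799). Without mice 43, 49 and 51, 10 of 11 were lower after TBI, with a median of -2.45, and mt-Co1 was at -2.43.

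Markers of other tissues stood out in single libraries. Summed over 16 hepatocyte genes, irradiated mice ranged from 7.45 to 39960 CPM and BIO 300 mice from 1.33 to 1209 CPM. In the hepatocyte list 1 gene was called higher and the median was 4.92. Once mice 43, 49 and 51 were left out, 0 were higher, 10 lower and the median was -5.45. Of the BIO 300 mice kept, mouse 45 held 94.6 CPM over the list and the others 1.33 to 6.86 CPM. The irradiated mice kept held 7.45 to 9.53 CPM, so mouse 45 alone lay above them. Of 8 adipocyte genes 1 was higher, of 7 endothelial genes 2, of 6 fibroblast genes 4 and of 4 muscle genes 1, with 0 lower in each. In the fit without mice 43, 49 and 51 these counts were 2, 1, 0 and 1. Of all genes, 19.6% were higher in the fit with them. Ptprb, an endothelial phosphatase, differed by 2.71 (SE 0.86, adjusted p = 0.0313) and Col3a1, a collagen of fibroblasts, by 3.32 (SE 1.16, adjusted p = 0.0457). Without mice 43, 49 and 51 neither was called (1.10 and 1.26), and the call was lost in 7 of the 12 fits that left out 1 mouse (log2 fold change 1.51 to 2.73 there) for Ptprb and 8 of the 12 fits that left out 1 mouse (log2 fold change 1.38 to 3.51 there) for Col3a1. Summed over 6 fibroblast genes, irradiated mice ranged from 1.86 to 156.6 CPM and BIO 300 mice from 1.23 to 7.92 CPM. The part of such markers in the blood cell results was not tested. Without those libraries 12 of 13 neutrophil, 16 of 17 B cell, 16 of 22 p53 and 10 of 10 MHC class II genes were called. These counts were within 1 of those with them. The counts of the glucocorticoid (7 to 3), aryl hydrocarbon receptor (3 to 1), NK (3 to 7) and mitochondrial (0 to 10) lists moved. Of all genes, 3755 were higher and 1852 lower without those libraries, against 4589 and 1073 with them.

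**Figure D5:**
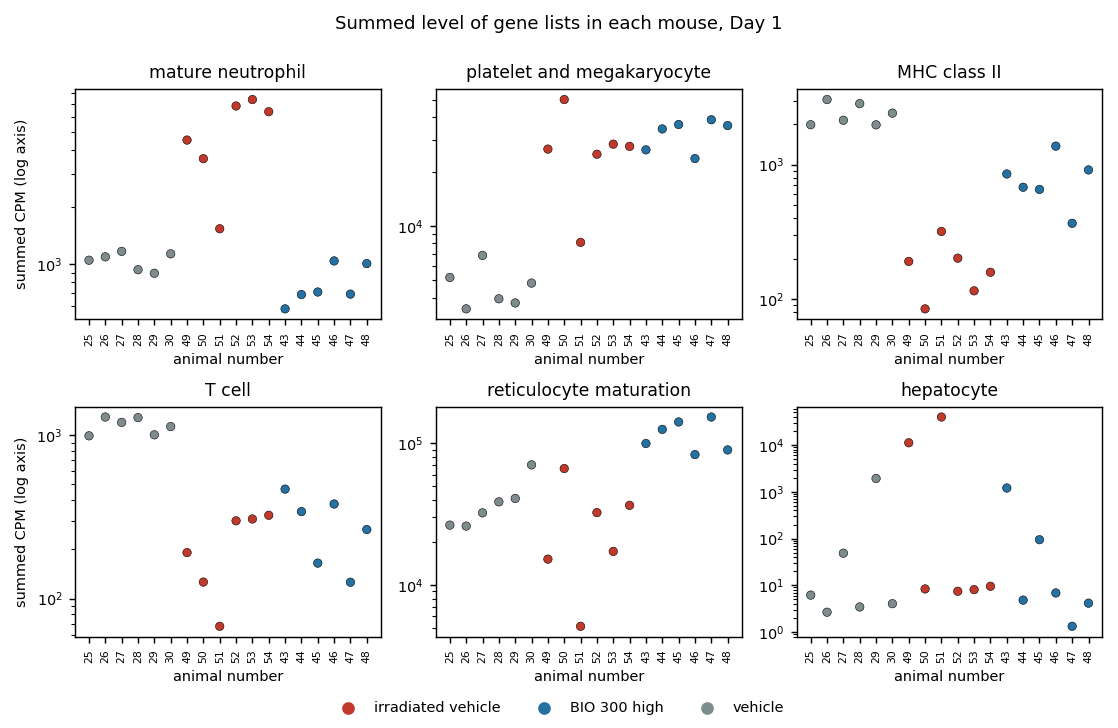
Each panel sums the CPM of a gene list in each of 18 mice (log axis, animal numbers below, groups by colour). Neutrophil totals are 1538 to 7419 CPM after TBI and 579.6 to 1039 CPM after BIO 300, platelet and T cell totals overlap between those groups, and hepatocyte totals stand out in mice 29, 43, 49 and 51.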

How the data were processed

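Whole blood RNA of 18 male mice was analysed, each mouse being a separate animal and 1 replicate, and groups were taken from the labels. The labels describe a poly(A) library, whereas the study's methods describe depletion of ribosomal and globin RNA. Per the labels and methods, the authors used Trimmomatic 0.36 for trimming and STAR 2.5.2b for alignment to GRCm38, and deposited raw counts of reads unique to a gene, from Subread 1.5.2. The annotation release and strand setting are not given in the sources used here. The fold changes and p-values of the authors' DESeq2 comparisons were not used.

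The count tables were joined by gene ID. The 6 vehicle columns present in both tables were identical, and no pair of mice in a group agreed within sampling noise (lowest chi-square per gene 12). Of 49315 genes, 49056 were named and located from GENCODE M21, and promoters were taken from RefSeq. Genes with at least 10 counts over the 12 mice were tested with edgeR 4.0.16 (quasi-likelihood, TMM, R 4.3.3), with Benjamini-Hochberg adjustment over all 23368. Scripts were checked on simulated data. Alternatives were RLE factors, total counts, filterByExpr, no filter, DESeq2 1.42.0, vehicle mice added to the fit, each mouse left out, and, chosen after seeing the data, omission of mice 43, 49 and 51 and total counts against vehicle mice.

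The comparison and gene lists were chosen with earlier results of these data known. Genes were named by rule. They were, per direction, the 10 DEGs with the largest fold change among those with at least 10 CPM in 1 group, no overlap between groups and the same call with total counts, RLE, filterByExpr and each mouse left out. By that rule 3 per direction were named among provisional symbols (Gm numbers and Rik). From each list, the 3 members with the largest fold change and the most abundant one were taken, then the 5 per direction called oppositely against vehicle mice, and members of lists called alike whose 95% interval lay within 1 of 0. Others are said to have been chosen after their values were seen, or are named as members of a list. One gene that the rule names is not reported here.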

Additional observations from a re-analysis of the deposited data

Results flagged for a closer look

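In 30 of 344 groups of 6 mice, for the genes named and the shares of reads, 1 mouse stood far from the others by Dixon's criterion (the gap from the highest or lowest mouse to its neighbour, as a share of the group's range). Independent, normally distributed values meet it in about 1 in 20 groups. The same 12 mice recur in all groups and CPM were not tested for normality, so the count cannot be set against that rate. Mouse 51 gave 15 of the 30 and mouse 43 gave 9. Both are among the 3 libraries of the irradiated and BIO 300 mice in which all 16 hepatocyte genes exceeded 10 CPM. The part of that in these values was not tested. Irradiated mouse 51 held the highest value of Orm2 (99.8 CPM, next 31.7), Lrg1 (595 CPM, next 256), Fgfr1 (155 CPM, next 29.2), Cdkn1a (77.2 CPM, next 35.9), Lcn2 (179.6 CPM, next 93.2), Fn1 (3726 CPM, next 428), Selp (127 CPM, next 31.2), Klf9 (65.6 CPM, next 25.2), Hmox1 (36.7 CPM, next 15.1), Alb (15820 CPM, next 3588), Col3a1 (69.7 CPM, next 10.7), Ptprb (59.3 CPM, next 22.4), Sesn1 (26.6 CPM, next 18.3) and the lowest value of Cd28 (5.19 CPM, next 16.0), Tsc22d3 (163 CPM, next 346). BIO 300 mouse 43 held the highest value of Slfn4 (27.5 CPM, next 12.2), Orm2 (1.16 CPM, next 0.397), Ifitm1 (5.47 CPM, next 4.40), Gm44292 (1.77 CPM, next 0.397), Gm15832 (2.24 CPM, next 0.868), Alb (405 CPM, next 29.3), Ptprb (6.05 CPM, next 2.46) and the lowest value of Lcn2 (2.45 CPM, next 5.56). BIO 300 mouse 46 held the highest value of Hba-a1 (17050 CPM, next 8071), Fas (4.60 CPM, next 3.02), and mouse 48 the highest value of Tsc22d3 (229 CPM, next 190.3). Irradiated mouse 50 held the lowest value of Bax (16.7 CPM, next 23.5) and mouse 54 the highest value of Cd200r3 (0.738 CPM, next 0.390). The share of reads on Gm26917 in BIO 300 mouse 43 was 1.47%, with the next mouse at 0.390%. The share of reads on protein-coding genes in BIO 300 mouse 46 was 85.4%, with the next mouse at 91.3%.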

How the results depend on the processing

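Of the 164 genes given by name, 84 kept their direction and their side of the threshold under every alternative that gave a value, of 19 tried. The alternatives without mice 43, 49 and 51, those for the shares of reads and total counts against vehicle mice were chosen after seeing the data. Scaling by total counts gave 11624 DEGs, 11392 higher and 232 lower, against 5662, 4589 and 1073 with TMM, and against vehicle mice 3115 higher after TBI, and 712 higher and 15407 lower after BIO 300. The stricter low-count filter (filterByExpr) called 2326 higher and 1454 lower, and the cause was not tested. Without mice 43, 49 and 51, 1852 were lower. With each mouse left out in turn, the count of DEGs ran from 4334 to 6731. DESeq2 called 5932 DEGs.

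With total counts, these log2 fold changes changed sign: Mki67 0.38, Ccr7 0.016, Tcf7 0.27, Cd3e 0.77, Cd4 0.74, Cd28 0.48, Xcr1 0.45, Gp1bb 0.089, Clec1b 0.11, Ppbp 0.45, Gp1ba 0.73, Pf4 0.62, Tubb1 0.56, Gp6 0.54, Gp5 0.53, Rasgrp2 0.49, Nfe2 0.50, Isg15 0.12, Gclm 0.21, Scarna13 0.50, Cd22 0.54, Rrm2b 0.85, Sesn1 0.34, Tlr9 0.30; list medians: DNA damage signalling and repair 0.14, BCL2 family 0.86, T cell 0.39, dendritic cell 0.42, patrolling monocyte 0.48, platelet and megakaryocyte 0.46, heme synthesis 0.25, erythroid transcription factors 0.50, mitochondrially encoded 0.66. With filterByExpr they were Cd6 -0.13, P2ry12 -0.045, Il1a -0.07 and, for list medians, neutrophil granule precursor -0.004, eosinophil and basophil 0.22, NRF2 pathway -0.025. With RLE factors Il1a was -0.032 and with DESeq2 -0.022. With vehicle mice in the fit they were Cd3e 0.015, Cd4 0.006, Gp1ba 0.015, Rrm2b 0.042 and the median of the BCL2 family 0.023. Without mice 43, 49 and 51 they were Cd3e 0.17, Cd4 0.26, Fn1 -1.01, Lyz2 -0.37, Selp -0.43, Mt1 -0.98, Alb -7.97, Il1a -0.52, Il1r1 -0.77, with medians classical monocyte -0.34, NRF2 pathway -0.40, hepatocyte -5.45, adipocyte -0.80. The median of all genes turned from 0.56 to -0.03 in that fit. The share of reads on mitochondrially encoded genes turned from 0.088 to -0.37 percentage points and that on protein-coding genes from -1.07 to 0.60. Leaving out single mice changed the sign of some values, with ranges of Cd6 -0.11 to 0.25, Cd3e -0.24 to 0.14, Cd4 -0.21 to 0.19, Lyz2 -0.047 to 0.37, Selp -0.042 to 1.14, P2ry12 -0.11 to 0.32, Gp1ba -0.36 to 0.12, Il1a -0.18 to 0.38, Rrm2b -0.11 to 0.071, list medians BCL2 family -0.084 to 0.25, neutrophil granule precursor -0.028 to 0.32, NRF2 pathway -0.13 to 0.33, and shares mitochondrially encoded protein genes -0.095 to 0.19, protein-coding genes -2.40 to 0.14. The causes were not tested. Genes not called with TMM that gained a call in at least 1 alternative were Alas2, Bcl11a, Bcl2, Brca2, Casp1, Ccr3, Clec9a, Fancd2, Gfi1b, Hbb-bs, Il18, Il1r1, Jund, Lck, Lyz2, Mdm2, Ncor1, Ncr1, Phlda3, Polk, Retnlg, Selp, Tlr1, Tlr7, Tsc22d3, Zfpm1 and mt-Co1.

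No paired analysis was possible because the replicate numbers are animal numbers, which the groups do not share. Genes with enough reads in too few mice have no value under filterByExpr, which was so for Alb, Fcer1a, Mcpt8, Mt1 and the skeletal muscle list. Alb was at 15820 CPM in mouse 51 and at 0 CPM in mouse 50. The part of depth in these missing values was not tested.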
